A study of Arabidopsis thaliana with 91 samples.

Results

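The microRNA (miRNA) genes of Arabidopsis thaliana were followed through the deposited peak lists of the 4 chromatin immunoprecipitation (ChIP-seq) targets of this study, H3K4me3, H3K14ac, the histone variant H2A.Z and Myc-tagged proteins. All nuclear genes that the TAIR10.1 annotation gives the biotype miRNA were taken, which were 326 of 37899 nuclear genes. The region of each gene ran from 1000 bp upstream of its start to its end. A gene was called marked in a library when a peak overlapped this region by at least 1 bp. No measured value entered the choice of the genes. They were short, with a median length of 144.5 bp (59 to 689 bp), and belonged to 215 families by name. Because some lie next to each other, their regions formed 302 separate stretches.

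In all, 144 miRNA genes (44.2%) lay wholly inside the region of a protein-coding gene, 169 (51.8%) overlapped no such region and 13 overlapped one in part. Of the 144 inside genes, 71 lay in the body of a coding gene. Among these hosted genes, 36 lay in an intron, 20 in an exon outside the coding sequence and 15 in a coding exon. The host was on the same strand for 45 of the 71 and on the opposite strand for 26. The other 73 inside genes lay within 1000 bp upstream of a coding gene. MIR838 lay in an intron of DCL1, the gene of the enzyme that cuts miRNA precursors, and had no H3K4me3 peak in any list. MIR156i and MIR156j lay opposite coding exons of SPL4 and SPL9, which belong to the transcription factor family that miR156 represses. Among the genes outside coding regions, 72 belonged to families shared with other flowering plants, listed by name, and 97 did not. The own regions of the outside genes could still touch a neighbour upstream, and 126 of the 169 were also clear of coding gene regions in that respect.

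Plant miRNA genes are transcribed by RNA polymerase II as precursors that fold into hairpins. DCL1 cuts the hairpin, and the mature strand guides AGO1 to messenger RNAs with a nearly complementary site, which are cut or repressed. Conserved families hold regulators of leaf identity, phase change, auxin response and nutrient supply. H3K4me3 and acetylated H3K14 are found at the starts of transcribed genes. H2A.Z is found next to starts and over the bodies of genes that respond to signals. ROS1 is a DNA glycosylase that removes methylated cytosines, and JMJ14 is a demethylase of H3K4.

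The mature sequences of the genes on which the results turn are given here 5′ to 3′ from the RefSeq annotation of TAIR10.1, with bases 2 to 8, the seed, in capitals. The annotation held 427 mature features on the 326 genes, with 349 different sequences and 307 different seeds. The first group is the miR156 family, whose seed stood in 11 genes, of which MIR156a and MIR156b are described with the comparisons.
miR156a-5p: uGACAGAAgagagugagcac
miR156b-5p: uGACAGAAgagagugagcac
The second group is from loci that carried H3K4me3 in every list, with MIR168b (27 of 29 lists) beside MIR168a for its identical product. miR159a and miR159b-3p share a seed, as do both miR168 genes, and the seed of miR166a-3p stood in 9 MIR165 and MIR166 genes.
miR159a: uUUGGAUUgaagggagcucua
miR159b-3p: uUUGGAUUgaagggagcucuu
miR166a-3p: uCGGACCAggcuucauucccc
miR167a-5p: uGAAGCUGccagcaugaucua
miR168a-5p: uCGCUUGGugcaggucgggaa
miR168b-5p: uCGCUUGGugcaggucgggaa
The third group is from loci with H2A.Z in every list.
miR160a-5p: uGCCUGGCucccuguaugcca
miR408-3p: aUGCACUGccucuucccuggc
The fourth group is from genes that gained or lost a peak in an engineered line. The MIR8167 sequence was identical in 6 genes.
miR393b-5p: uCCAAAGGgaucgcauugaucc
miR828: uCUUGCUUaaaugaguauucca
miR163: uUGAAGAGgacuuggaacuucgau
miR824-5p: uAGACCAUuugugagaaggga
miR869.1: aUUGGUUCaauucugguguug
miR8167b: aGAUGUGGagaucguggggaug
miR8167f: aGAUGUGGagaucguggggaug

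The libraries were made from leaf tissue of Columbia-0 plants 4 to 5 weeks old, and their labels sort them into 11 sets. SDG2-ZF carried the catalytic domain of SDG2, the main H3K4 trimethylase, fused to a zinc finger made for the FWA promoter, under the UBQ10 promoter. The finger binds many other sites, and UBQ10 is active in most tissues. SDG2-ZF_rdd had this transgene in the rdd mutant (ros1-3 dml2-1 dml3-1), which lacks DNA demethylases, and was set against rdd. SunTag-SDG2_rdr6 used a dCas9 array with guides against the FWA promoter to recruit the same domain, in rdr6, a mutant with less transgene silencing. SDG2(H1866K)cd, which the paper describes as a zinc finger fusion in Col-0, carried a missense mutation in the catalytic domain. TRBIP1-ZF was in the fwa epiallele background, in which FWA has lost its DNA methylation. TRBIP1 is a small coiled-coil protein that interacts with JMJ14. TRBIP1-dCAS9-MQ1v, which adds a CG methyltransferase variant, was in fwaxrdr6, the unmethylated fwa epiallele with the rdr6 mutation. It was set against fwaxrdr6 without the construct. Each with 1 H3K4me3 library and in no comparison, dCAS9-MQ1v carried the methyltransferase variant without TRBIP1 in fwaxrdr6, and noguideSDG2_rdr6 the SDG2 system without guides in rdr6. Myc-tagged ROS1 was compared with and without SDG2-ZF, and Myc-tagged JMJ14 with and without TRBIP1-ZF. The sources used here do not say how many plants or transgenic lines stand behind each library, so p-values measure the spread between these libraries.

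There were 50 lists for 91 samples, 29 of H3K4me3, 6 of H3K14ac, 7 of H2A.Z and 8 of Myc, of which 1 was from untagged Col-0. Lists held 808 to 30556 peaks. Longer lists can mark more genes, so the number of peaks is given where it differs most, and its part in a result was not tested except by lists of equal numbers. All 4 leaf markers (RBCS1A, LHCB1.3, RCA, PSBO1) had an H3K4me3 peak in 29 of 29 lists. Of the root and pollen markers, PER59 had one in 1 list, PHO1 in 4, VGD1 in 6 and the LAT52-like gene in 0. H2A.Z lay at these 4 genes in 5 to 7 of 7 lists.

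miRNA genes were marked less often than coding genes by each of the 4 targets. H3K4me3 marked 29.6% ± 4.36 of miRNA genes and 64.6% ± 6.98 of coding genes (SD, n = 29 libraries), and miRNA genes were lower in every library. The difference was -35.0 percentage points (two-sided permutation test over libraries, adjusted p = 4e-05, the smallest that 100000 resamples and 12 class contrasts can give). For H3K14ac the mean shares were 27.7% of miRNA genes and 65.1% of coding genes, a difference of -37.4 points (exact permutation test, adjusted p = 0.0312, n = 6). For H2A.Z they were 26.8% and 69.8%, a difference of -43.0 points (exact permutation test, adjusted p = 0.0234, n = 7). For Myc-tagged proteins they were 10.7% and 22.1%, a difference of -11.4 points (exact permutation test, adjusted p = 0.0234, n = 7). With 6 and 7 libraries, p before adjustment cannot go below 0.0312 and 0.0156. The libraries read the same genes, so these tests cover the spread between libraries and not between genes. Coding genes are longer than miRNA genes. In windows of 500 bp on either side of the start, which have one length for both classes, the shares were 27.2% of miRNA genes and 58.7% of coding genes for H3K4me3, and 25.0% and 60.2% for H2A.Z. The 625 tRNA genes, which are also short, had an H3K4me3 peak in 29.7% on average, and the 3480 lncRNA genes in 35.4%.

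**Figure D1:**
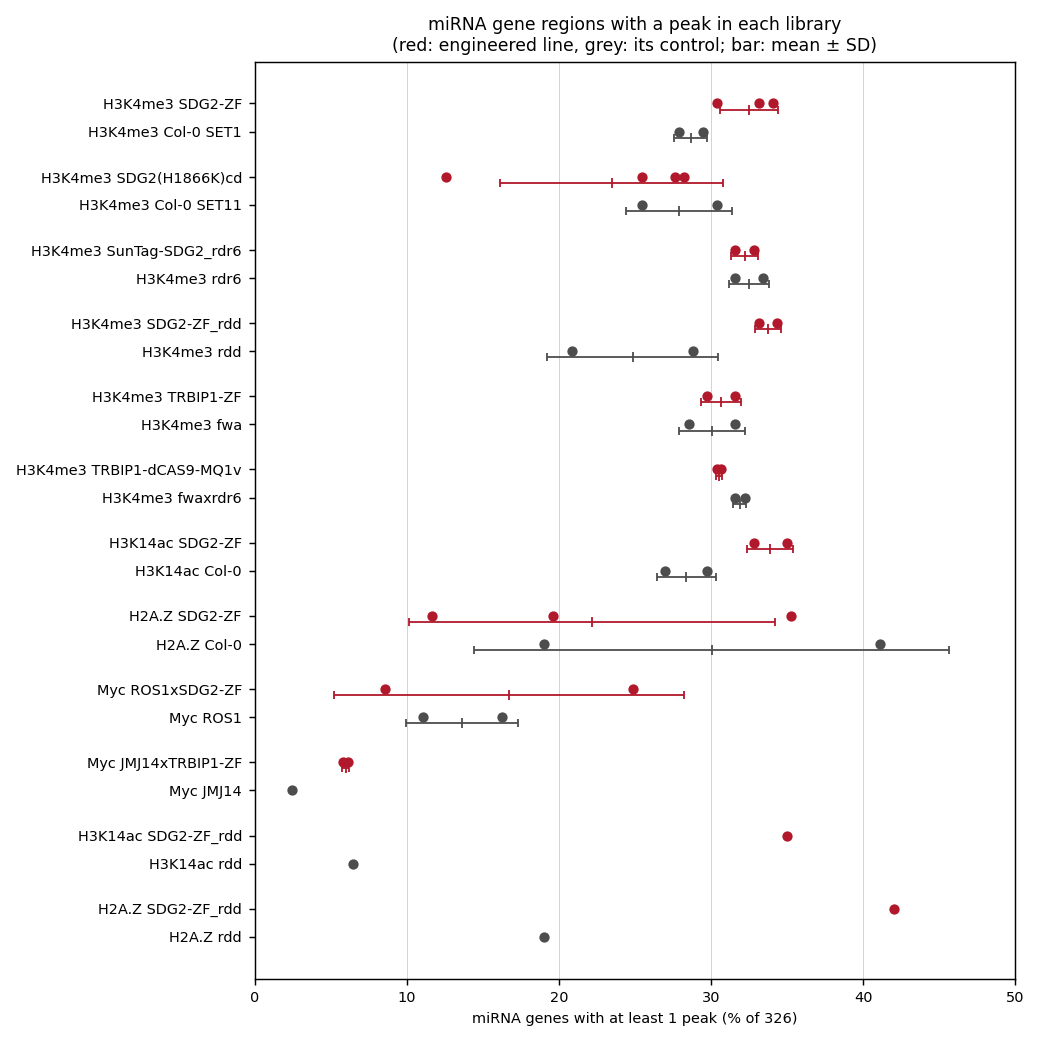
Percent of the 326 miRNA genes with at least 1 peak (horizontal axis), 1 point per library, for the lines of the 12 comparisons (rows), each engineered line in red above its control in grey, with the mean and SD as a bar beneath the points. H3K4me3 lists span 12.6% to 34.4%, H2A.Z lists 11.7% to 42.0% and lists of Myc-tagged lines 2.45% to 24.8%.

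Position relative to coding genes went with the marks. Inside coding gene regions, 42.7% of miRNA genes carried H3K4me3 on average, against 19.0% outside, and the inside share was higher in 29 of 29 libraries (difference 23.7 points, permutation test, adjusted p = 4e-05). H3K14ac marked 40.4% of the inside genes and 16.5% of the outside genes, a difference of 23.9 points (exact permutation test, adjusted p = 0.0312, higher in 6 of 6 libraries). H2A.Z marked 32.9% and 20.8%, a difference of 12.1 points, and Myc-tagged proteins 13.6% and 8.20%, a difference of 5.39 points, each with the inside share higher in 7 of 7 libraries (exact permutation tests, adjusted p = 0.0234 each). These tests too cover the spread between libraries and not between genes. In the Col-0 libraries of SET1, 58 and 60 inside genes had an H3K4me3 peak. For 54 of the 58 and 56 of the 60, every such peak also reached a window of 500 bp on either side of a coding start. For outside genes this held for 1 of 30 and 2 of 33. At these 54 and 56 genes an H3K4me3 peak could not be told apart from that of the neighbouring coding start, and 4 genes in each library had a peak away from coding starts. The same limit held for the other targets. Every H3K14ac peak in Col-0 reached such a window at 51 of 57 and 55 of 65 marked inside genes. For H2A.Z in Col-0 this was so at 54 of 70 and 31 of 39, and for Myc-ROS1 at 25 of 29 and 16 of 20. At marked outside genes the counts were 1 of 27 and 2 of 28 for H3K14ac, 4 of 58 and 2 of 19 for H2A.Z, and 2 of 22 and 3 of 15 for Myc-ROS1. Hosted genes and genes upstream of a coding gene had H3K4me3 in both Col-0 libraries at 27 of 71 and 31 of 73.

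**Figure D2:**
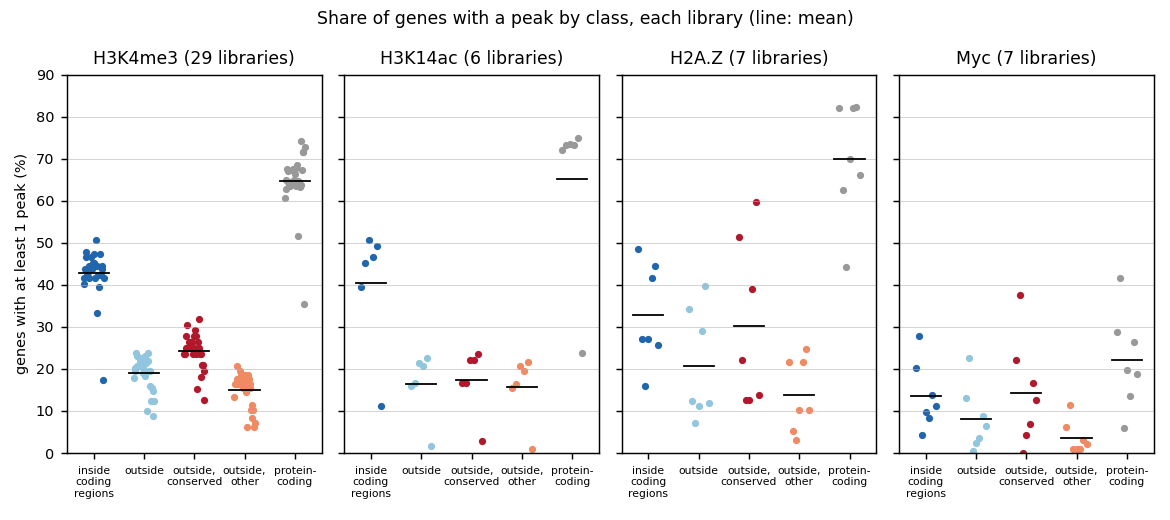
Percent of genes with at least 1 peak (vertical axis) by class of gene, 1 panel per target, 1 point per library and a line at the mean. For H3K4me3 the lines stand at 42.7% for miRNA genes inside coding gene regions, 19.0% for those outside and 64.6% for coding genes.

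Outside coding gene regions, conserved families were marked more often than other miRNA genes by the main rule. For H3K4me3 and H3K14ac the sign depended on the rule for peaks, as given below. The libraries read the same 72 and 97 genes, so these tests also cover the spread between libraries and not between genes. H3K4me3 marked 24.4% of the 72 conserved genes and 15.1% of the 97 others, with the conserved genes higher in 29 of 29 libraries (difference 9.30 points, permutation test, adjusted p = 4e-05). H2A.Z marked 30.2% and 13.8%, a difference of 16.3 points (7 of 7 libraries, exact permutation test, adjusted p = 0.0234). Myc-tagged proteins marked 14.3% and 3.68%, a difference of 10.6 points (6 of 7 libraries, exact permutation test, adjusted p = 0.0312). For H3K14ac the shares were 17.4% and 15.8%, a difference of 1.55 points (6 of 6 libraries, exact permutation test, adjusted p = 0.0312). The H3K4me3 difference was -1.68 points (p = 0.131, permutation test) when a peak had to have its midpoint inside the region, and 13.3 points in windows of 500 bp on either side of the start. The H3K14ac difference was -0.73 points (p = 0.312, exact permutation test) with peaks of -log10 q of at least 5.

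The marks on conserved outside genes sat close to the annotated start of the gene. In Col-0, H3K4me3 peaks covered the start of 20.8% of these genes and reached 23.6% at 150 bp downstream (mean of 2 libraries). H2A.Z covered 22.2% at the start and 25.7% at 50 bp downstream. ROS1 covered 14.6% at the start and 16.0% at 100 bp downstream. For the other outside genes, coverage at the start was 7.73% for H3K4me3, 7.73% for H3K14ac, 7.22% for H2A.Z and 1.55% for ROS1, and the highest values lay over 1000 bp away, such as 10.3% for H3K4me3 at 1900 bp upstream. For inside genes, H3K4me3 coverage was highest at 950 bp upstream, with 21.2%. The annotated start need not be the transcription start.

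**Figure D3:**
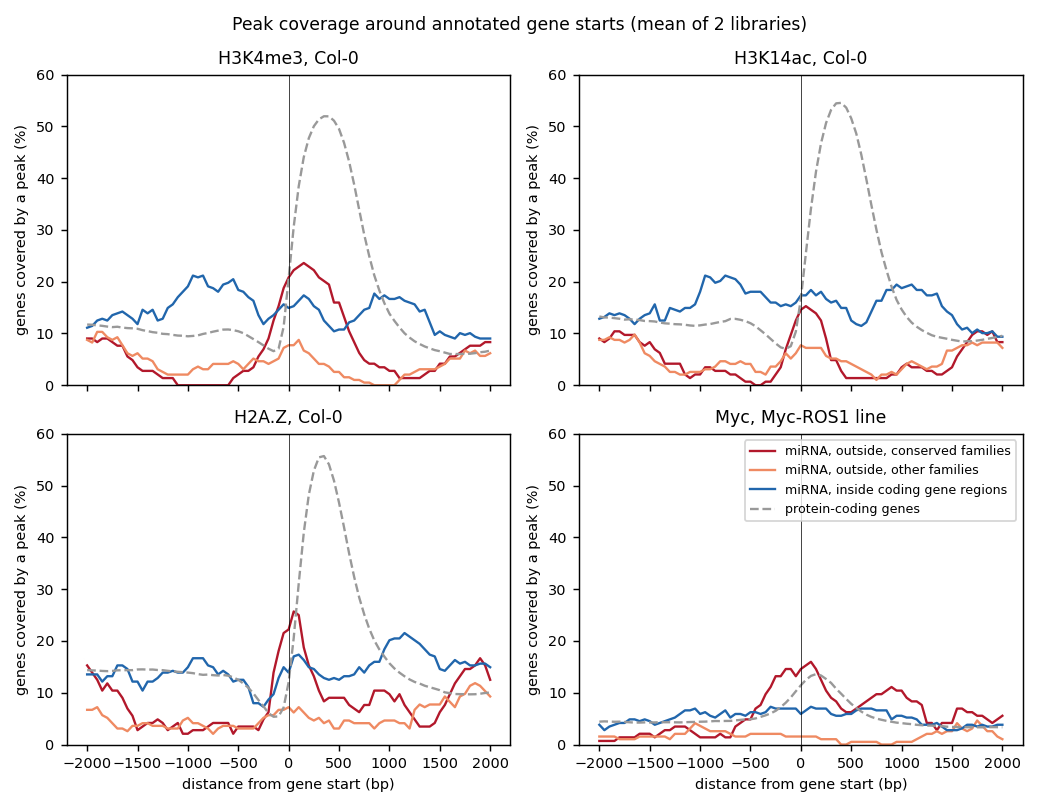
Percent of genes whose position is covered by a peak (vertical axis) against distance from the annotated start in bp (horizontal axis), mean of 2 Col-0 or Myc-ROS1 libraries, for 3 classes of miRNA genes and for coding genes. Conserved genes outside coding regions peak at 23.6% for H3K4me3 near the start, while other outside genes stay at 7.73% there.

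In Col-0, 90 of the 326 genes (27.6%) carried H3K4me3 in both libraries of SET1, 81 carried H3K14ac and 60 carried H2A.Z, and 28 had a peak in both Myc-ROS1 libraries. H3K4me3 and H3K14ac were together at 68 genes. H3K4me3 and H2A.Z were together at 29, and 27 genes had H2A.Z in both libraries and H3K4me3 in neither. All 3 histone features were on 24 genes, of which 20 lay inside coding gene regions. The 3 outside were MIR830, MIR827 and MIR156c. Of the 28 genes with ROS1 in both libraries, 23 also had H3K4me3 in both, and 13 of these 23 lay inside coding gene regions. The same share over all nuclear genes is not given here, so this overlap is not read as particular to miRNA genes. None of the 3 features was found in either of these Col-0 libraries at 149 genes (45.7%). Outside coding regions, 29 genes had H3K4me3 and 18 had H2A.Z in both libraries, and 3 had both. The 2 Col-0 H2A.Z lists marked 134 and 62 miRNA genes, of which 58 and 19 lay outside. Counts in both libraries are thus bounded by the second list. Of the 29 outside genes with H3K4me3, 13 had H2A.Z in neither library.

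Over all lines, 32 miRNA genes had an H3K4me3 peak in every one of the 29 lists, 135 in some and 159 in none. The 8 of them outside coding regions were MIR159a, MIR159b, MIR166a, MIR167a, MIR168a, MIR172a, MIR4228 and MIR8166. H3K14ac was in all 6 lists at 21 genes and in none at 191. H2A.Z was in all 7 lists at 25 genes and in none at 146. A Myc peak was in all 7 lists of tagged lines at MIR847 and MIR8166 and in none at 223 genes. No peak of any target was found at 77 genes in these 49 lists, and no gene was marked in all 49. MIR5015, MIR160a and MIR164b were the outside genes with H2A.Z in every list.

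Of the 5 strongest outside loci for H3K4me3 in Col-0, MIR159a, MIR159b, MIR168a and MIR167a belong to conserved families and MIR8166 does not. Fold values here are the authors' enrichment over the background used in peak calling, whose control is not given. They rank peaks within a library. MIR159a (chr1:27713233-27713416, - strand) had an H3K4me3 fold of 6.11 and 6.99 in the Col-0 libraries of SET1, and MIR159b (chr1:6220646-6220841, + strand) 6.01 and 6.73. miR159 represses MYB transcription factors of the GAMYB type. MIR168a (chr4:10578635-10578772, + strand) had 6.43 and 5.89. miR168 targets AGO1, the protein that carries miRNAs. MIR167a (chr3:8108072-8108209, + strand), which targets the auxin response factors ARF6 and ARF8, had 5.25 and 5.97. MIR8166 had 5.69 and 7.26. The upstream regions of MIR159a, MIR168a and MIR8166 touched that of a coding gene, while those of MIR159b and MIR167a were clear of any. Across all 29 lists MIR159a ranged from 1.81 to 9.78 and MIR167a from 1.44 to 12.4.

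For H3K14ac the order was a different one. MIR5641 had folds of 4.03 and 4.46 in Col-0, MIR830 3.66 and 4.95, and MIR4228 3.45 and 3.87, followed by MIR406 and MIR779. None of these 5 belongs to a listed conserved family. For H2A.Z, MIR5015 had 3.20 and 5.29, MIR830 2.79 and 3.19, MIR2111a 2.76 and 3.03, MIR160a 2.58 and 2.80 and MIR156c 2.45 and 3.07. MIR2111a, a phosphate-responsive locus, had H2A.Z in 5 of 7 lists and neither H3K4me3, H3K14ac nor a Myc peak in any. In both Myc-ROS1 libraries MIR159b had 4.56 and 3.81, MIR166a 4.62 and 3.47, MIR168a 3.55 and 3.28, MIR168b 3.20 and 3.18 and MIR4240 2.78 and 3.55. Of these 5 ROS1 loci, MIR159b, MIR166a and MIR168a carried H3K4me3 in all 29 lists and MIR168b in 27, while MIR4240 carried none.

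Members of a family differed. Of 10 MIR156 genes, which repress SPL factors and hold the juvenile phase, MIR156c, d, h and j had H3K4me3 in both Col-0 libraries of SET1 and the other 6 had it in neither. MIR156c, a main source of miR156, was marked in 27 of 29 H3K4me3 lists (fold 1.84 to 9.05), 5 of 6 H3K14ac lists and 4 of 7 H2A.Z lists. MIR156a (chr2:10676451-10676573, - strand), the other main source, was marked in 4 of 29 H3K4me3 lists. Of 7 MIR166 genes, which repress HD-ZIP III factors, MIR166a, b, c and e had H3K4me3. Of 14 MIR169 genes, which target NF-YA factors, only MIR169f did in both libraries. Neither the 6 sulfate-responsive MIR395 genes nor the 6 phosphate-responsive MIR399 genes had H3K4me3 in Col-0 of SET1. MIR399c alone of these 12 had H2A.Z in both Col-0 libraries. MIR399f had an H2A.Z peak in 1 of 7 lists and no peak of the other targets.

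Among the 22 nutrient genes, 5 carried H3K4me3 in both Col-0 libraries, namely MIR408, MIR398a, MIR398b, MIR398c and MIR827, and 6 carried H2A.Z. MIR408 and MIR398 are the copper-responsive loci, and MIR827 responds to phosphate. MIR408 (chr2:19319814-19320031, + strand) lies opposite an untranslated exon of AT2G47020 and had H2A.Z in 7 of 7 lists, with folds of 3.39, 4.84 and 3.24 in SDG2-ZF, against 3.77 and 4.00 in Col-0, and 4.59 in SDG2-ZF_rdd, against 4.46 in rdd. The groups overlapped. It carried H3K14ac in 6 of 6 lists and H3K4me3 in 27 of 29. MIR398b, opposite an untranslated exon of AT5G14550, had H2A.Z in 7 lists and H3K14ac in 2. MIR827 had H3K14ac in all 6 and H3K4me3 in 14.

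Of the 11 auxin genes, MIR393a and MIR167a had H3K4me3 in both Col-0 libraries, none had H3K14ac, and MIR160a had H2A.Z. MIR160a (chr2:16340279-16340363, + strand), which targets ARF10, ARF16 and ARF17, had H2A.Z folds of 2.68, 3.42 and 2.11 in SDG2-ZF, against 2.58 and 2.80 in Col-0. Its H3K4me3 was weaker, in 22 of 29 lists with a median fold of 2.16, and H3K14ac was in 1 list. Of 56 genes in families with roles in development, 15 had H3K4me3 and 8 had H2A.Z in both Col-0 libraries. MIR319a, which targets TCP factors, and MIR390a, which starts TAS3 phasing, had H3K4me3 in 0 and 2 lists. MIR164a and MIR165a each had it in 1 list. MIR172b, with AP2-like targets, had it in 25, and MIR396a, with GRF targets, in 22. MIR162a, which targets DCL1, had H3K4me3 in all 29 lists (fold 1.49 to 8.97), and MIR403, which targets AGO2, in 27. Both had H3K14ac in 5 of 6 lists and no Myc peak.

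**Figure D4:**
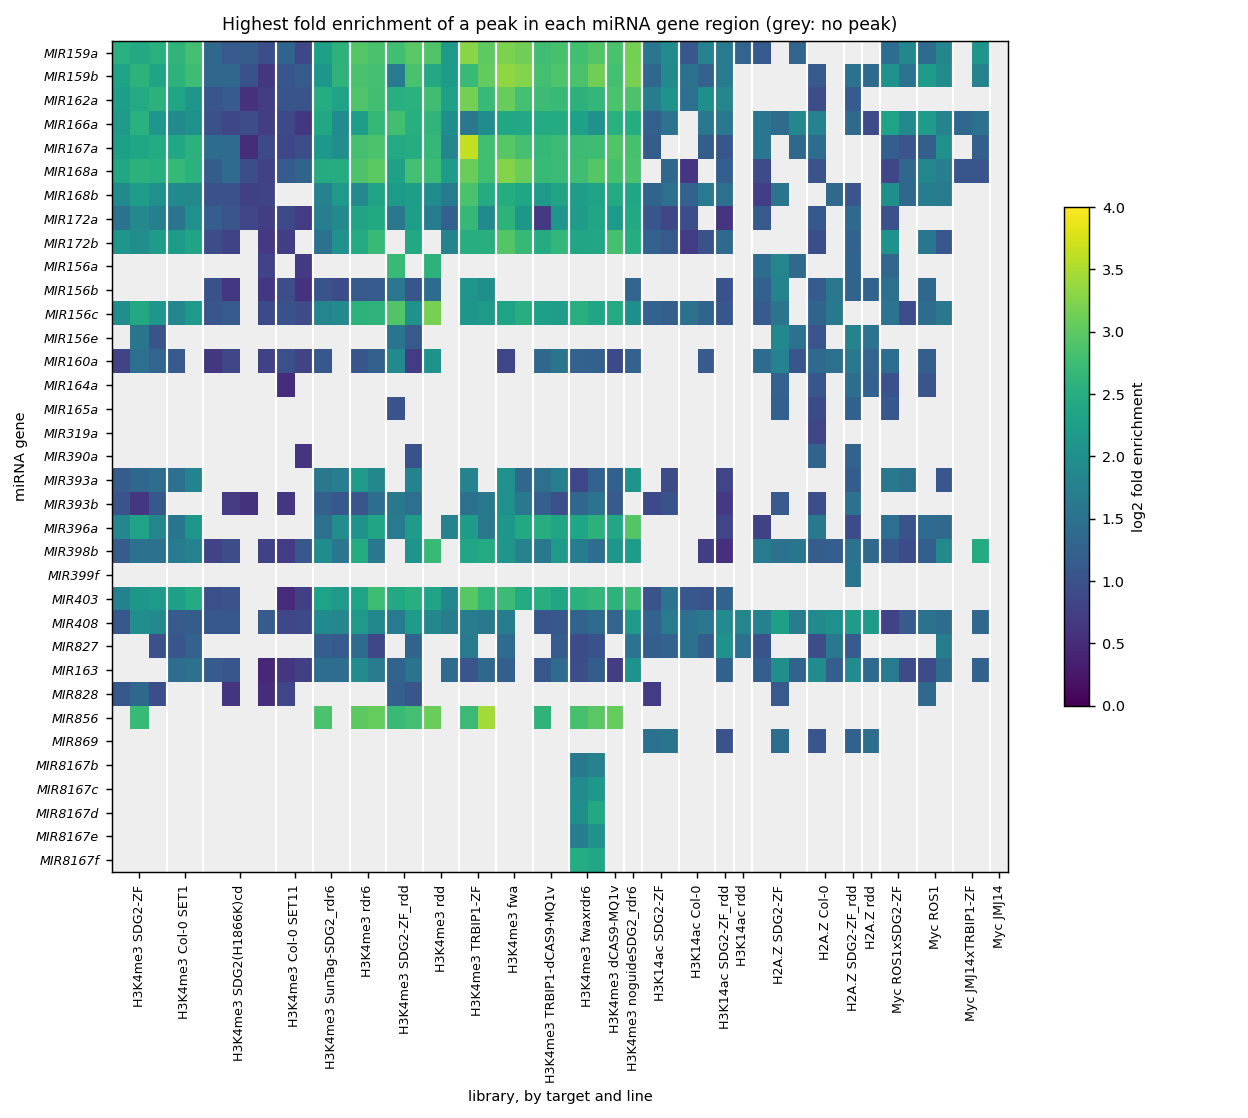
Log2 of the highest fold enrichment of a peak in the region of each of 35 miRNA genes (rows) in each of 49 libraries (columns, by target and line), with grey where there was no peak. MIR159a, MIR167a and MIR168a are coloured in all 29 H3K4me3 libraries, MIR160a and MIR408 in all 7 H2A.Z libraries, and MIR8167b to MIR8167f in the fwaxrdr6 libraries alone.

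The next question was whether lines that place or remove H3K4me3 changed the marks at miRNA genes. A gene was called gained when every library of the engineered line and no library of its control had a peak, and lost in the reverse case. In the 10 comparisons with replicates no difference in the percent of marked miRNA genes passed 0.05 (exact permutation tests, adjusted p 0.667 to 1). The smallest p that 2 against 2 libraries allow is 0.333, and it is 0.1 for 3 against 2 and 0.0667 for 4 against 2. Counts of gained and lost genes from all libraries are given beside the percent of all 37899 nuclear genes with the same call. By construction such a count cannot fall when a library is left out. For calls with a library left out or with equal numbers of peaks, the percent of all genes is not given here. Nothing particular to miRNA genes is therefore read from those counts.

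In SDG2-ZF, H3K4me3 marked 30.4%, 34.0% and 33.1% of miRNA genes, against 27.9% and 29.4% in Col-0 of SET1, so the groups did not overlap. The means were 32.5% ± 1.92 (SD, n = 3) and 28.7% ± 1.08 (n = 2), a difference of 3.83 points (exact permutation p = 0.2). With equal numbers of peaks it was 0.31 points (exact permutation p = 1). For coding genes the means were 66.5% in SDG2-ZF and 61.7% in Col-0. All nuclear genes did not overlap either, with 53.6% to 56.4% in SDG2-ZF, against at most 51.8% in Col-0. Gained were 5 miRNA genes (1.53%), beside 2.51% of all genes, and lost were 3 (0.92%), beside 0.288%. Without SDG2-ZF replicate 1 or without Col-0 replicate 2, 11 genes were gained, and with lists of equal numbers of peaks 2.

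MIR393b (chr3:20691647-20691806, + strand) was the 1 gained gene outside coding regions. It targets the TIR1/AFB auxin receptors. Its H3K4me3 fold was 2.04, 1.54 and 2.16 in SDG2-ZF, and the nearest Col-0 peaks were 3762 and 3744 bp away. The SDG2-ZF peaks overlapped the annotated gene itself. The gene also gained H3K4me3 in SDG2-ZF_rdd (3.03 and 2.75, against no peak in rdd with the nearest at 145 and 3854 bp) and H3K14ac in SDG2-ZF (1.85 and 2.01, against none in Col-0). MIR393b is marked by H3K4me3 in 21 of 29 lists, including both rdr6 (2.08 and 2.72) and both fwaxrdr6 libraries (2.49 and 2.86), so its peak is not particular to SDG2-ZF. MIR169a, gained with 1.92, 2.23 and 1.93, had its nearest Col-0 peaks 3410 and 3387 bp away and was marked in 4 of 29 lists. MIR828, which starts TAS4 phasing, was gained with 2.12, 2.54 and 1.95, against Col-0 peaks 337 and 313 bp away. It lies upstream of ACBP2, and the SDG2-ZF peaks did not reach the annotated gene. MIR777 (3.10, 3.97 and 3.05) and MIR782 (3.03, 3.98 and 3.93) lay upstream of coding genes and were gained on peaks that also covered a coding start. At MIR777 the Col-0 peaks ended 16 and 1 bp outside the region and at MIR782 299 and 12 bp outside it.

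MIR163 was lost in SDG2-ZF. Its Col-0 folds were 2.70 and 2.81, and the nearest SDG2-ZF peaks were 559, 544 and 539 bp away. It lies upstream of LIG6 and was marked in 23 of 29 H3K4me3 lists and 7 of 7 H2A.Z lists. Its Col-0 peaks overlapped the annotated gene and also reached a coding start. MIR5642a and MIR5642b were lost too, with the same folds of 1.70 and 1.22 in Col-0. The widest Col-0 peaks were 12190 and 10163 bp at MIR5642a and 5425 and 332 bp at MIR5642b. These 2 genes also had a Myc peak of fold 6.50 in untagged Col-0. Their gene bodies are 98.4% identical and their regions 98.6%, so reads cannot be assigned between them with certainty.

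In the rdd background, SDG2-ZF_rdd had H3K4me3 at 33.1% and 34.4% of miRNA genes, against 28.8% and 20.9% in rdd. The difference was 8.90 points (exact permutation p = 0.333). It was 1.38 points with equal numbers of peaks and 2.61 with the peak midpoint inside the region (exact permutation p = 0.667 each). Within SET6 it was 4.29 points and within SET7 13.5 points. The rdd list of SET7 held 12992 peaks, the fewest of these 4. Gained were 5 genes, beside 3.09% of all genes, and lost were 0, beside 0%. Without rdd replicate 1, 31 genes were gained, without SDG2-ZF_rdd replicate 1 or 2 17 and 13, and without rdd replicate 2 9. Without either rdd library 1 was lost. Besides MIR393b and MIR828 (2.35 and 2.11), which were also gained in SDG2-ZF, these were MIR156e (2.95 and 2.17), MIR406 (2.17 and 2.43) and MIR5635d (2.67 and 1.77), which lies in an intron of AT4G02320. The genes gained in both backgrounds were thus 2 of 5 in each. With equal numbers of peaks, 2 genes were gained in SDG2-ZF_rdd. The comparisons share no libraries, but the share of all genes gained in both is not given here. Nothing is therefore read from this overlap.

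SunTag-SDG2_rdr6 and rdr6 had H3K4me3 at 31.6% and 32.8%, against 31.6% and 33.4%, a difference of -0.31 points (exact permutation p = 1), or -2.61 with equal numbers of peaks (exact permutation p = 0.333). No miRNA gene was gained, beside 1.19% of all genes, and 1 was lost, beside 0.327%. This was MIR156i, opposite a coding exon of SPL4, with 1.87 and 2.11 in rdr6. Without SunTag-SDG2_rdr6 replicate 1, 5 genes were gained and 4 lost. Without SunTag-SDG2_rdr6 replicate 2, 1 was gained. Without rdr6 replicate 1, 4 were lost, and without rdr6 replicate 2, 2 were gained and 3 lost. The difference was 0.31 points without SunTag-SDG2_rdr6 replicate 1 and 0.61 without rdr6 replicate 2.

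SDG2(H1866K)cd had H3K4me3 at 28.2%, 27.6%, 12.6% and 25.5% of miRNA genes, against 30.4% and 25.5% in Col-0 of SET11, a difference of -4.45 points (exact permutation p = 0.667). Replicate 3 stood apart with 9647 peaks. Without it the difference was -0.82 points, and with equal numbers of peaks 0.84. One gene was gained, MIR168b (2.01, 2.00, 1.69 and 1.76, against Col-0 peaks 2878 and 4600 bp away), beside 0.029% of all genes, and 1 was lost, MIR419 (1.60 and 1.40 in Col-0), beside 0.259%. In the other Col-0 libraries, those of SET1, MIR168b had 3.77 and 3.68, so its absence was limited to Col-0 of SET11 among the 29 lists. Without Col-0 replicate 2 of SET11, 9 genes were lost, without Col-0 replicate 1 of SET11 3, and without SDG2(H1866K)cd replicate 1 or 4 2.

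TRBIP1-ZF had H3K4me3 at 31.6% and 29.8%, against 31.6% and 28.5% in fwa, a difference of 0.61 points (exact permutation p = 1), which was 0 within SET8 and 1.23 within SET9. Gained were 4 miRNA genes, beside 0.462% of all genes, and lost were 0, beside 0.52%. MIR156b (chr4:15074899-15075081, + strand) had 4.23 and 3.97 in TRBIP1-ZF, the highest of its 15 marked lists (1.50 to 4.23), and the nearest fwa peaks were 5089 and 5171 bp away. Its TRBIP1-ZF peaks lay on the annotated gene and also covered the start of AT4G30970. MIR856 had 6.62 and 10.9, but the fwa peaks ended 11 and 13 bp outside its region. MIR400 and MIR5654 share a peak, with a lower fold of 1.94, in AT1G32583. Without TRBIP1-ZF replicate 2, 7 genes were gained, and without fwa replicate 1 8 were. Without TRBIP1-ZF replicate 1 or without fwa replicate 2, 5 were lost, and the difference was -0.31 and -0.92 points. Without fwa replicate 1, 1 was lost.

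TRBIP1-dCAS9-MQ1v had H3K4me3 at 30.4% and 30.7%, against 32.2% and 31.6% in fwaxrdr6, so the groups did not overlap. The same held for all nuclear genes, with 53.28% and 52.66% in TRBIP1-dCAS9-MQ1v, against 53.31% and 53.48% in fwaxrdr6. The difference for miRNA genes was -1.38 points (exact permutation p = 0.333). Lost were 6 genes (1.84%), beside 0.641% of all genes, and gained was 1, MIR8169 (2.57 and 2.53), beside 0.525%. Without TRBIP1-dCAS9-MQ1v replicate 1, 3 genes were gained, and without TRBIP1-dCAS9-MQ1v replicate 2 or either fwaxrdr6 library, 2 were. Of the 6 lost genes, 5 were MIR8167 copies on chromosomes 3 and 5.

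MIR8167f (chr5:24002239-24002313, - strand) had 5.55 and 5.21 in fwaxrdr6, MIR8167d (chr5:7057157-7057231, + strand) 3.99 and 5.39, MIR8167c (chr3:18843649-18843723, - strand) 3.80 and 4.37, MIR8167e (chr5:23431703-23431777, - strand) 3.25 and 4.10 and MIR8167b (chr3:17469946-17470020, - strand) 3.06 and 3.41. At MIR8167b, e and f the peaks also covered the start of a coding gene. These 5 loci had a peak in the 2 fwaxrdr6 libraries and in none of the other 48 lists. Both fwaxrdr6 lists stood apart in another respect, since they held 3229 and 3023 repeated lines and 191 and 148 organelle lines, against 48 to 59 repeated and 53 to 59 organelle lines in the other 3 lists of SET10. The part of this in the MIR8167 peaks was not tested. The sixth copy, MIR8167a on chromosome 2, had none in any list. The 6 gene sequences of 75 bp are 100% identical, so the gene sequence alone does not tell copies apart. With 300 bp upstream, pairs are 67.6% to 100% identical, and with 1000 bp upstream 67.2% to 99.9%. MIR8167b and MIR8167e are the pair at 100% with 300 bp upstream. The paper lists paired reads longer than these genes, so reads can reach the flanks. How well they separate the copies was not tested. The peaks were 557 to 1509 bp wide and overlapped the annotated genes. The peak at MIR824, which targets AGL16, was lost at the edge of its region (5.13 and 5.54 in fwaxrdr6, with the TRBIP1-dCAS9-MQ1v peaks 13 and 109 bp away).

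H3K14ac marked 35.0% and 32.8% of miRNA genes in SDG2-ZF, against 27.0% and 29.8% in Col-0. The groups did not overlap, and the difference was 5.52 points (exact permutation p = 0.333), while coding genes had 73.3% in SDG2-ZF and 72.6% in Col-0. All nuclear genes did not overlap either, with 61.9% and 61.6% in SDG2-ZF, against 59.9% and 61.0% in Col-0. Gained were 9 miRNA genes (2.76%), beside 1.56% of all genes, and lost were 0, beside 1.11%. Without SDG2-ZF replicate 1 or 2, 15 and 19 were gained, without Col-0 replicate 2 16, and without Col-0 replicate 1 or 2, 4 and 3 were lost. Of the 9, 6 lay outside coding regions. MIR869 (chr5:15891579-15891873, - strand) had 2.80 and 2.89 in SDG2-ZF, with the nearest Col-0 peaks 2746 and 2761 bp away. MIR426 had 2.67 and 2.36, MIR8183 2.65 and 2.31, MIR167d 1.92 and 2.36, MIR1888a 2.17 and 1.94 and MIR8169 3.50 and 1.88. MIR393b, MIR391 (1.94 and 1.83) and MIR8166 (1.70 and 2.23) completed the 9. At MIR8166, MIR1888a and MIR8169 the SDG2-ZF peaks also reached a coding start in both libraries. At MIR8166, MIR1888a and MIR426 they overlapped the annotated gene in neither library. At MIR869, MIR8183, MIR167d, MIR393b and MIR391 they overlapped it in both and reached no coding start. All of the 9 but MIR167d also had a peak in the SDG2-ZF_rdd list and none in the rdd list, which makes 8 of 9. That call was met by 93 of 326 miRNA genes and 43.5% of all genes, on lists of 23235 peaks in SDG2-ZF_rdd and 5635 in rdd, so nothing is read from this overlap. MIR869 and MIR8183 had no H3K4me3 peak in any of the 29 lists.

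For H3K14ac in the rdd background there was 1 list a line and therefore no test. SDG2-ZF_rdd had a peak at 35.0% of miRNA genes (95% Wilson interval 30.0% to 40.3%) and rdd at 6.44% (4.25% to 9.65%), where intervals cover counting error only. Gained were 93 miRNA genes, beside 43.5% of all genes, and lost were 0, beside 0.0211%. With equal numbers of peaks in both lists the difference was 0 points, with 8 gained and 8 lost. MIR5595a (5.73), MIR1888b (5.11) and MIR166c (4.98) had the highest folds among the gained.

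H2A.Z marked 19.6%, 35.3% and 11.7% of miRNA genes in SDG2-ZF, against 41.1% and 19.0% in Col-0. The groups overlapped, and the difference was -7.87 points (exact permutation p = 0.6), or -2.61 with the replicate number as a block, -1.74 with equal numbers of peaks, and 3.17 without Col-0 replicate 1. It was -25.5 points within SET4 and 16.3 within SET5. The SDG2-ZF lists held 18658, 29052 and 12217 peaks and the Col-0 lists 28280 and 21273. Gained was 1 gene, beside 0.0765% of all genes, and lost were 2, beside 0.681%. The gained gene was MIR156a, with 2.68, 3.53 and 2.62 in SDG2-ZF and the nearest Col-0 peaks 3855 and 3823 bp away. SDG2-ZF_rdd also had a peak there (2.45) and rdd did not (3900 bp). That call was met by 80 of 326 miRNA genes and 17.1% of all genes, and the gained call itself fixes the other lists. Nothing is therefore read from this overlap. The 3 SDG2-ZF peaks lay on the annotated gene. MIR391 (2.42 and 2.04 in Col-0) and MIR844 (2.54 and 3.16) were lost in SDG2-ZF, the second on peaks that also covered a coding start. Both had a peak in SDG2-ZF_rdd (2.57 and 2.14) and none in rdd. Without SDG2-ZF replicate 1, 4 genes were gained. Without SDG2-ZF replicate 2 or without Col-0 replicate 1, 2 were gained. Without SDG2-ZF replicate 2, 19 were lost, and without Col-0 replicate 2, 32.

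The H2A.Z lists of the rdd background, again 1 a line, marked 42.0% in SDG2-ZF_rdd (Wilson interval 36.8% to 47.4%) and 19.0% in rdd (15.1% to 23.6%). Gained were 80 miRNA genes, beside 17.1% of all genes, and lost were 5, beside 1.68%. The lists held 30556 and 21066 peaks, and with equal numbers 34 were gained and 9 lost. MIR5017 (4.89), MIR845b (4.25) and MIR864 (4.07) led the gained genes and MIR8121 (3.39), MIR171b (2.97) and MIR5019 (2.91) the lost.

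Myc-ROS1 was found at 81 and 28 miRNA genes in ROS1xSDG2-ZF, against 53 and 36 in ROS1, on average 16.7% ± 11.5 and 13.7% ± 3.69 of the genes (SD, n = 2 each). The ROS1xSDG2-ZF lists held 14212 and 5580 peaks and the ROS1 lists 9724 and 7924. The groups overlapped. The difference was 3.07 points (exact permutation p = 1) and 0.31 with equal numbers of peaks, but 8.59 within SET4 and -2.45 within SET7, and -5.06 without ROS1xSDG2-ZF replicate 1. One gene was gained, MIR8171 (2.30 and 2.62), beside 0.636% of all genes, and 2 were lost, MIR4240 (2.78 and 3.55 in ROS1) and MIR8121 (2.43 and 2.80), beside 0.443%. At MIR4240 the ROS1xSDG2-ZF peaks ended 52 and 13 bp outside the region. Without ROS1xSDG2-ZF replicate 2, 29 genes were gained. Without ROS1xSDG2-ZF replicate 1, 2 were gained and 7 lost. Without ROS1 replicate 2, 6 were gained and 6 lost, and without ROS1 replicate 1, 4 were lost.

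JMJ14 was found at 5.83% and 6.13% of miRNA genes in JMJ14xTRBIP1-ZF, against 2.45% in the 1 JMJ14 list, a difference of 3.53 points (exact permutation p = 0.333, the smallest possible). With equal numbers of peaks it was 0.77 points (exact permutation p = 1). The JMJ14 list held 1572 peaks and the others 5678 and 3814. Gained were 5 genes (1.53%), beside 3.38% of all genes, and lost were 0, beside 0.211%. With equal numbers of peaks 1 was gained. MIR166a (2.55 and 2.85) and MIR168a (2.11 and 2.09) lay outside coding regions. MIR158a (2.84 and 3.06), MIR5663 (3.27 and 3.09) and MIR5658 (3.04 and 2.61) lay inside. MIR166a, MIR168a and MIR158a also had a Myc peak in all 4 libraries of ROS1 lines. Without JMJ14xTRBIP1-ZF replicate 1, 16 were gained and 4 lost, and without replicate 2, 11 were gained. The untagged Col-0 list had 808 peaks and marked 7 miRNA genes (2.15%) and 0.627% of coding genes, and none of the genes gained or lost in the Myc comparisons was among them.

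**Figure D5:**
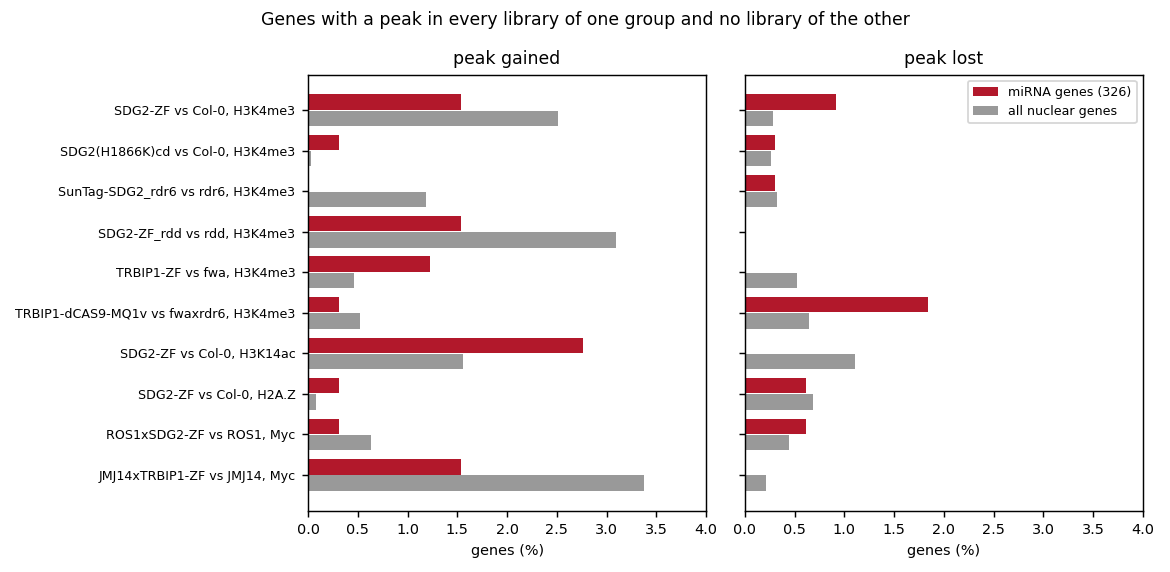
Percent of genes gained (left) and lost (right) in the 10 replicated comparisons, with miRNA genes in red above all nuclear genes in grey. Gains of H3K14ac in SDG2-ZF stand at 2.76% of miRNA genes and 1.56% of all genes, and losses in TRBIP1-dCAS9-MQ1v at 1.84% and 0.641%.

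The coding genes of the miRNA pathway were listed by name as well. Of 19 genes of small RNA production and action, such as DCL1, HEN1, SE, HST and AGO1, none was gained or lost in the 10 replicated comparisons. Over all genes, 0.029% to 3.38% were gained and 0% to 1.11% lost in these comparisons, so that count is near the background. In SDG2-ZF and in Col-0 of SET1, 18 of the 19 had H3K4me3 in every library. In the single lists of the rdd background, 14 were gained for H3K14ac, beside 43.5% of all genes. For H2A.Z 6 were gained, beside 17.1%, and 1 (ABH1) was lost, beside 1.68%. Of 23 coding targets of conserved miRNAs, CUC2, a target of miR164, was gained for H3K4me3 in both SDG2-ZF and SDG2-ZF_rdd, beside 2.51% and 3.09% of all genes, and for Myc in ROS1xSDG2-ZF, beside 0.636%. AFB2, a target of miR393, was gained for H3K14ac in SDG2-ZF, beside 1.56%. SPL9, AFB2 and APS1, targets of miR156, miR393 and miR395, were gained in JMJ14xTRBIP1-ZF, beside 3.38%. None of the 23 was lost in the 12 comparisons, in which 0% to 1.68% of all genes were lost, so that count is near the background.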

How the data were processed

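The authors trimmed reads with Trim Galore 0.6.5, mapped them to TAIR10 with Bowtie2 2.1.0, removed duplicates with SAMtools 1.9 and called peaks in each library with MACS2 2.2.1, with deepTools 3.1.3 for tracks. A MACS2 control library is not given in the sources used here. Each deposited list gives a fold enrichment (a ratio to the background used in calling) per peak, with its significance as -log10 p-value and -log10 q-value. In 23 lists no peak had a -log10 q under 2, and in 27 some did, so thresholds differed. Peaks show presence only, and longer lists can mark more genes.

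Of 863269 lines, 1490 on organelles and 10375 repeats were left out, which left 851404 peaks. The other 41 samples, which had no list, were not used here. Peaks were joined to the RefSeq annotation of TAIR10.1, whose nuclear sequence is that of TAIR10. Scripts ran in Python 3.11.15 with numpy 2.4.6, pandas 2.3.3, scipy 1.17.1, statsmodels 0.14.6, Biopython 1.88 and matplotlib 3.10.9. The code for the calls was run on simulated lists without noise (200 of 200 planted genes recovered or already marked). That run checked the overlap rule and not how reliable calls are on real lists.

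The library was the unit of every test. Group means were compared by exact two-sided permutation of library labels, and classes of genes by flips of the sign within libraries, with 100000 resamples for H3K4me3, both with Benjamini-Hochberg adjustment. Lists held 808 to 30556 peaks, which with the number of genes limits the precision. Read depth was not used. Genes named are the gained or lost (up to 6 per direction, by the lowest fold, and 3 where a line had 1 list), 23 well-studied loci, the 5 strongest outside genes per target in Col-0 or ROS1, and their hosts. MIR838, MIR847, MIR164b, MIR399c, MIR156d, MIR156h, MIR156j, MIR166b, MIR166e, MIR169f, MIR398a, MIR398c, MIR8167a and the genes marked in the untagged list were named after their values were seen. The genes and lists were chosen with earlier results of these data known.

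Same-numbered libraries share a SET label for H3K4me3 of SDG2-ZF_rdd and TRBIP1-ZF, for ROS1xSDG2-ZF and for replicates 1 and 2 of H2A.Z. What a set shares is not stated. Deviations of same-numbered libraries correlated across genes at 0.054, 0.233 and 0.377 in the first 3 and at -0.001 and -0.051 for H2A.Z.

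Alternatives tried were a minimum -log10 q of 5, equal numbers of peaks per list, peak midpoint inside the region, the gene body only, 500 bp on either side of the start, outside genes only, each library left out and replicate number as a block. Removal of genes marked in the untagged list was chosen after seeing the data.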

Additional observations from a re-analysis of the deposited data

Results flagged for a closer look

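In SDG2(H1866K)cd, replicate 3 stood far below the other 3 H3K4me3 libraries in the percent of miRNA genes marked inside coding gene regions (17.4%) and of coding genes marked (35.4%). Its gap to the nearest of the others was 0.897 and 0.97 of the whole range of the 4 libraries, where chance passes 0.829 in about 1 of 20 groups. Its list held 9647 peaks, against 23067 to 27855 in the others.

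For H2A.Z, SDG2-ZF minus Col-0 was -25.5 percentage points within SET4 and 16.3 within SET5, with every library on its own side. For Myc-ROS1, ROS1xSDG2-ZF minus ROS1 was 8.59 points within SET4 and -2.45 within SET7. Neither difference between sets was tested. The number of peaks moved the same way. In SET4 the H2A.Z lists of SDG2-ZF held 18658 and 12217 peaks and that of Col-0 28280, and in SET5 that of SDG2-ZF held 29052 and that of Col-0 21273. For Myc-ROS1 the list of ROS1xSDG2-ZF held 14212 and that of ROS1 9724 in SET4, against 5580 in ROS1xSDG2-ZF and 7924 in ROS1 in SET7. The part of list length in these differences was not tested.

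The untagged Col-0 library, which enters no comparison, had Myc peaks at 7 miRNA genes. These were MIR5642a and MIR5642b (fold 6.50 each), MIR5643b (5.73), MIR5643a (4.45), MIR2933a (3.62), MIR854e (3.07) and MIR8169 (2.81).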

How the results depend on the processing

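Of 164 alternatives to the 24 differences in percent of marked genes, 143 kept direction and side of the threshold. Where no test was possible, those that kept the value were counted. In the replicated comparisons of lines, the exact permutation p cannot go below 0.0667, so their side of 0.05 was fixed in advance. For them the count of 143 reflects direction only. Direction alone hides large moves with equal numbers of peaks, where H3K4me3 of SDG2-ZF was 0.31 points, of SDG2-ZF_rdd 1.38 and of SunTag-SDG2_rdr6 -2.61, H2A.Z of SDG2-ZF -1.74, ROS1xSDG2-ZF 0.31 and JMJ14xTRBIP1-ZF 0.77. Signs turned as follows. With equal numbers of peaks, SDG2(H1866K)cd minus Col-0 was 0.84 points. With the midpoint inside the region, SunTag-SDG2_rdr6 was 1.07, TRBIP1-dCAS9-MQ1v 0.31 and conserved minus other genes for H3K4me3 -1.68. With outside genes only, SunTag-SDG2_rdr6 was 0.59 and TRBIP1-ZF -0.89. At -log10 q of at least 5, conserved minus other genes was -0.73 for H3K14ac, and for Myc 7.27, no longer past 0.05 (exact permutation p = 0.0625). For the single lists, H3K14ac of SDG2-ZF_rdd was 0 with equal numbers, 21.8 by midpoint, 19.0 by gene body and 20.7 for outside genes, and H2A.Z 7.67, 15.3 and 15.0 under the first 3 of these. The cause was not tested, except that list length is what equal numbers remove.

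With each library left out, the difference ranged from 3.07 to 4.91 for H3K4me3 of SDG2-ZF, -6.90 to -0.82 for SDG2(H1866K)cd, -1.23 to 0.61 for SunTag-SDG2_rdr6 (0.31 without its replicate 1), 4.91 to 12.9 for SDG2-ZF_rdd, -0.92 to 2.15 for TRBIP1-ZF (-0.31 without its replicate 1), -1.69 to -1.07 for TRBIP1-dCAS9-MQ1v, 4.14 to 6.90 for H3K14ac, -18.9 to 3.17 for H2A.Z, -5.06 to 11.2 for ROS1xSDG2-ZF and 3.37 to 3.68 for JMJ14xTRBIP1-ZF.

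With the replicate number as a block, H3K4me3 of SDG2-ZF was 3.53 points and H2A.Z -2.61. SDG2(H1866K)cd was 0 points with the block, against -4.45 without it. Its counts were 2 genes gained and 2 lost with the block, against 1 and 1 without it. No paired analysis was possible for JMJ14 because there was 1 control list.

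Of 250 alternative counts of gained and lost genes, 114 moved by over 1.5 times. The percent of all genes under these alternatives is not given here. With equal numbers of peaks, 2 genes gained H3K4me3 in SDG2-ZF and 2 in SDG2-ZF_rdd, 8 gained H3K14ac and 34 gained H2A.Z in SDG2-ZF_rdd, and 1 gained JMJ14. Without the genes marked in the untagged list, differences were 3.13 for ROS1 and 3.76 points for JMJ14. Shares of 326 genes carry counting error, and absence of a peak is absence at that library's depth and threshold.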
